A study of Rattus norvegicus with 10 samples.

Results

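The isoforms described here are spliced transcripts of known rat genes that were assembled from the reads and match no annotated transcript. Such an isoform shares at least 1 splice junction with an annotated transcript of its gene and differs from it elsewhere (class j of the deposited isoform table, with an assembled identifier), and is called an unannotated isoform here. The table holds 11195 of them among 51430 isoforms (21.8%), in 5286 of 20226 genes (26.1%). For each isoform the share was computed in each library, as its FPKM (fragments per kilobase of transcript, scaled to the library) in percent of the summed FPKM of all isoforms of that gene name. The sum took annotated isoforms (classes = and c), unannotated isoforms (class j) and assembled transcripts that overlap an exon of the gene (class o).

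The RNA came from livers of wild-type Wistar rats, all fed a diet with 60% of its energy as fat for 4 weeks and then given streptozotocin at 35 mg/kg, an agent that kills insulin-producing beta cells, so both groups share this diabetes model. For both groups the labels also name a fast of 16 h, a glucose value of 16.7 mmol/L and a point 3 days after streptozotocin. Of the 10 libraries, 5 (SG 1 to SG 5) are from rats with a sleeve gastrectomy, an operation that removes much of the stomach, labelled 3 months, and 5 (SHAM 1 to SHAM 5) are from sham-operated rats, whose labels give no time. The comparison asks which liver transcripts differ after the operation. Whether each library stems from a separate rat is not in the labels, and p-values reflect only the variation among these libraries.

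Most mammalian genes give more than 1 transcript, because exons can be joined in different ways and transcription can start or end at different places. A short-read assembler infers transcripts from reads across junctions and from coverage, and then divides the reads of a gene among its transcripts by estimate. A share is therefore an estimate that rests on few informative reads where isoforms differ little. In liver, alternative starts and exons are known in enzymes, secreted proteins and nuclear receptors.

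Transcript sequences of the genome build of the table were not used here. To show the start regions of genes that the results turn on, windows from 250 bases before to 50 bases after an annotated start are printed from RefSeq, build GRCr8. Apoe was chosen as the gene with the most FPKM in unannotated isoforms, and Ctsa and Pigr as genes whose 2 main unannotated isoforms replaced each other between libraries. Capitals mark the letters CCAAT or, on the other strand, ATTGG. Apoe has 3 starts in that table and the middle one is shown.
Apoe, chr1:88484650-88484949, minus strand: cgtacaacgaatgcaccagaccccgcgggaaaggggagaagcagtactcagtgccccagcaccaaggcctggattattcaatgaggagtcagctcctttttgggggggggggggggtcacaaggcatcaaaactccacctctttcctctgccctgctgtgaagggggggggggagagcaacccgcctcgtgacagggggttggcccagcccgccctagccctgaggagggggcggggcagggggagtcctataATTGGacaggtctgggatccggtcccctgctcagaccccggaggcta
Ctsa, chr3:173988193-173988492, plus strand: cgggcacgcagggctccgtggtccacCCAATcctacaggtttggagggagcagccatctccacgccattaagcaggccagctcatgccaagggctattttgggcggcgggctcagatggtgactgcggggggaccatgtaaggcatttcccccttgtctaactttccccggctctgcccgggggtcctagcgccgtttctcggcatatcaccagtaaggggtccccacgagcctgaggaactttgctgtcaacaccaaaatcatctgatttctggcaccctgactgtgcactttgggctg
Pigr, chr13:44850932-44851231, plus strand: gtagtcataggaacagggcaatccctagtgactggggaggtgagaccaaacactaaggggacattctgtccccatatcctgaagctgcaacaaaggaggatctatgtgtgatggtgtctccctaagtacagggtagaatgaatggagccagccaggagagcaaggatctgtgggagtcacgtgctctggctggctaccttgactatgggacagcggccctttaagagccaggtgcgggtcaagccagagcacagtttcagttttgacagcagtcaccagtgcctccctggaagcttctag
The Apoe and Ctsa windows hold 1 match each and the Pigr window none. CCAAT occurs in 36.4% of the 846 windows of 715 genes that express mainly an unannotated isoform, against 37.5% of all 33469 windows, and TATAAA in 7.80% against 14.2%, both counted on either strand. Among the 8667 windows of genes with a mean of at least 1 FPKM the values were 37.9% and 7.14%. The median number of CG pairs in a window was 22 in the mainly unannotated genes, 21 in the expressed genes and 7 in all windows.

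Total estimated counts ran from 65824088 to 92110190 a library, with SHAM 1 and SHAM 2 the lowest at 66817732 and 65824088 and the other 8 at 77617460 or more. Hepatocyte markers summed to between 24239 and 39275 FPKM in each library, and markers of other liver cells were low. SG 2 stood apart with 425 FPKM of macrophage markers and 89.7 FPKM of stellate cell markers, where the other SG libraries reached at most 213 and 43.9. Its B and plasma cell markers were at 66.6 FPKM, against at most 30.7 in the other SG libraries. SHAM 5 had 361 FPKM of macrophage markers, where the other SHAM libraries reached at most 247. Its T and NK cell markers were at 5.10 FPKM, against at most 2.97 in the other SHAM libraries. Results without both libraries are given where they differ.

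Unannotated isoforms made up a large and steady part of the expression of their genes. Of the summed FPKM of the genes that have an unannotated isoform, they held 35.5%, 40.7%, 36.6%, 41.5% and 38.7% in SG 1 to SG 5, and 38.2%, 36.9%, 34.3%, 36.4% and 39.3% in SHAM 1 to SHAM 5. The groups overlapped, with means of 38.6% ± 2.55 and 37.0% ± 1.91 (SD, n = 5 each). The difference of 1.56 percentage points was within the spread (two-sided exact permutation test, p = 0.302, adjusted p = 0.540 over 4 measures, where 0.00794 is the smallest p that 5 against 5 can give). The number of unannotated isoforms above 0 was 9887 ± 40.9 in SG and 9795 ± 79.4 in SHAM (exact permutation p = 0.0635, adjusted p = 0.254, n = 5 each), with the 2 lowest values, 9709 and 9722, in the 2 libraries of the lowest total count.

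Of the 5286 genes, 2837 had a single unannotated isoform, 1746 had 2 or 3 and 703 had 4 or more. RefSeq symbols matched 4888 of these genes, and 4884 of the matched genes were protein coding. Of the 11195 unannotated isoforms, 7857 were above 0 in all 10 libraries and 56 were at 0 in each. The mean share over the 10 libraries was under 5% for 2185 isoforms (19.5%), from 5% to 20% for 3810 (34.0%), from 20% to 50% for 3082 (27.5%), and at least 50% for the remaining 1107 (50% to 75%), 473 (75% to 90%) and 538 (90% to 100%). The median was 17.8%, so the usual unannotated isoform was a minor product, with a second, smaller peak of isoforms that made nearly all of their gene's signal.

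**Figure D1:**
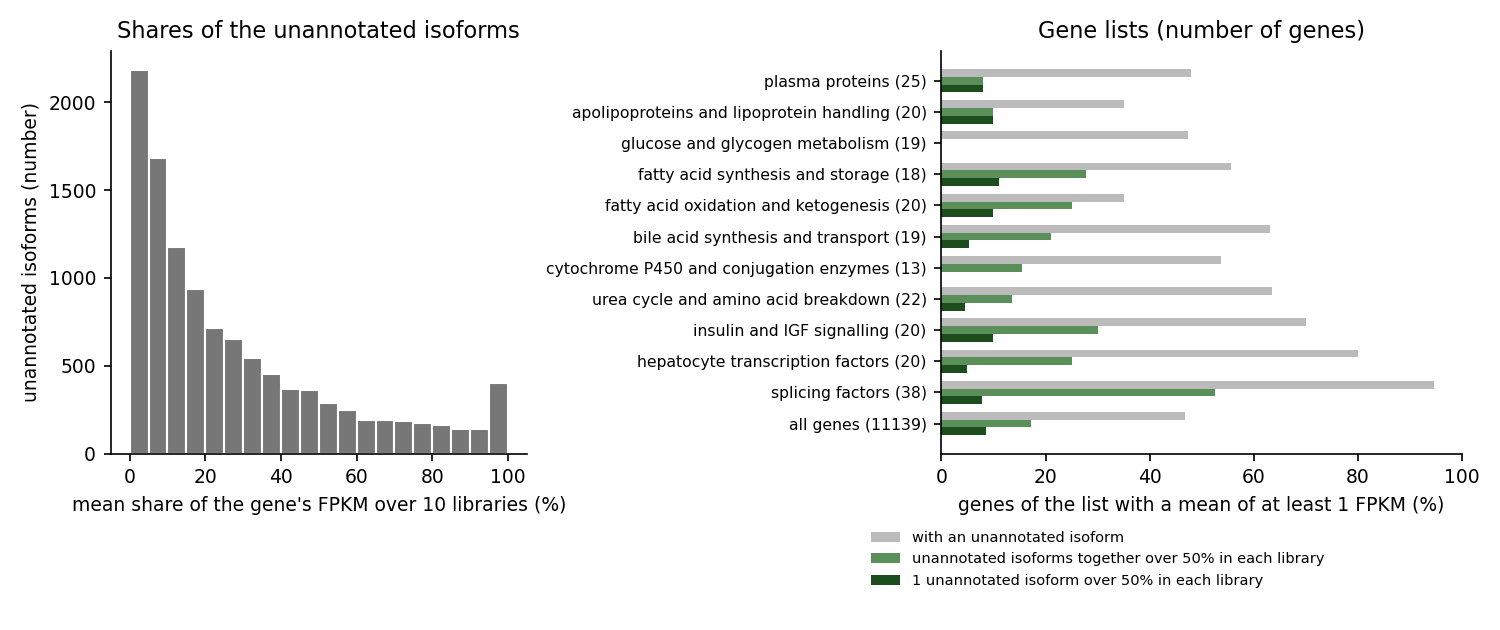
Left, number of unannotated isoforms by mean share of their gene's FPKM over 10 libraries, in steps of 5%. Right, for each gene list and for all 11139 genes with a mean of at least 1 FPKM, the percent of genes with an unannotated isoform (light grey), with unannotated isoforms together over 50% in each library (light green) and with 1 unannotated isoform over 50% in each library (dark green). Splicing factors have the longest bars for the first 2 measures, at 94.7% and 52.6%.

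Among the 11139 genes with a mean of at least 1 FPKM, 5219 (46.9%) had an unannotated isoform. In 961 of them (8.63% of all expressed genes) 1 unannotated isoform held over 50% in each of the 10 libraries, in 2675 the leading unannotated isoform was over 50% in some libraries only, and in 1583 it never passed 50%. Summed over all unannotated isoforms of a gene, 1932 genes were over 50% in each library. The median over the 961 genes of the mean share was 90.5%, with a median SD of 4.13 percentage points over libraries. In 335 of them the lowest share was over 90%. For 99 of the 961 genes no annotated isoform entered the sum, so the share of such a gene compares assembled transcripts with each other only. At the limit of 50%, the genes just inside were Entpd7, a nucleotide phosphatase, with a lowest share of 50.0%, and Cdc42bpa, a kinase, with 50.1%. Just outside were Spink1l, also 50.0% when rounded, and Ell2, an elongation factor of RNA polymerase II, with 49.9%. The Entpd7 isoform does not overlap the annotated one. It starts 460673 bases downstream of the annotated start and ends 491457 bases beyond the annotated end. Its share thus compares separate places on the chromosome under 1 gene name.

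The mainly unannotated genes with the highest expression included several secreted proteins and metabolic enzymes of the liver. Apoe encodes apolipoprotein E, which carries lipoprotein remnants to hepatic receptors, and had a mean of 3971 FPKM. Its unannotated isoform (4 exons, 1144 bases, chromosome 1, 80612895 to 80615704, minus strand, Rnor_6.0) had both ends in common with the main annotated isoform and was 40 bases shorter. It held 96.5%, 97.2%, 96.0%, 96.2% and 96.8% in SG 1 to SG 5 and 97.2%, 96.3%, 96.5%, 96.3% and 96.3% in SHAM 1 to SHAM 5. No library of either group stood apart by more than about a percentage point.

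Hp encodes haptoglobin, the plasma protein that binds free haemoglobin, at 3146 FPKM. Its unannotated isoform (5 exons, 1354 bases, chromosome 19, 42096097 to 42100804, plus strand) began 1898 bases upstream of the annotated one, shared its 3′ end and had 1 exon more. It held 99.4% to 99.7% in each library. Fetub, which encodes the plasma protease inhibitor fetuin B, had an unannotated isoform that began 2561 bases upstream, with 8 exons like the annotated one and 4082 against 1527 bases. Its share was 85.5%, 85.2%, 84.5%, 95.4% and 82.0% in SG and 89.7%, 85.2%, 85.1%, 87.2% and 86.1% in SHAM, with SG 4 alone above 90%.

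Apoc2 encodes the activator of lipoprotein lipase, and its unannotated isoform had 5 exons against 4 and began 5436 bases upstream. It held 92.4% ± 5.17 (SD, n = 10), from 82.8% in SHAM 1 to 99.1% in SHAM 4. Spp2, which encodes a secreted phosphoprotein, had a 1599-base unannotated isoform at 94.7% ± 1.34, where the annotated isoform in the table is 405 bases long. For Masp2, a protease of the lectin pathway of complement, the unannotated isoform was the shorter one, with 5 exons and 757 bases against 11 exons and 2317 bases. It shared the annotated 5′ end and stopped 12977 bases before the annotated 3′ end. This gene is known for a short protein product beside the full protease. The short isoform held 61.4%, 62.9%, 54.9%, 61.4% and 62.5% in SG and 62.9%, 57.4%, 61.4%, 55.8% and 53.9% in SHAM, so the short form was the higher one in each library, with the full-length form close behind. In estimated counts, which grow with length, the mean share of the short form was 32.7% in place of 59.5%. The short form therefore led in FPKM and not in estimated counts.

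Fads2, a fatty acid desaturase, had an unannotated isoform at 99.5% or more in each library, while its level ran from 76.0 to 495 FPKM. It ended 207706 bases beyond the annotated 3′ end. An end over 100000 bases beyond the annotated isoform occurred in 30 of 861 mainly unannotated isoforms that could be compared (3.48%) and in 676 of 10647 of all unannotated ones (6.35%). These counts include isoforms that do not overlap the annotated one, such as that of Entpd7. Whether isoforms with such ends join neighbouring genes was not tested.

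Mitochondrial enzymes were a further group. For Aldh2, the mitochondrial aldehyde dehydrogenase, an unannotated isoform of 13 exons and 2049 bases was the only isoform in the sum, at 241 to 403 FPKM. Gcdh, which acts in lysine and tryptophan breakdown, had an unannotated isoform with 1 exon fewer than the annotated one and both ends in common, at 76.9% ± 2.01. The unannotated isoform of Pc, pyruvate carboxylase, began 4818 bases upstream and held 84.1% ± 6.01, from 71.2% in SG 1 to 92.4% in SG 4, and all unannotated isoforms of Pc together held 97.1% ± 1.38.

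Genes of protein folding, lysosomes and matrix complete the group. The unannotated isoform of Hsp90b1, an endoplasmic reticulum chaperone, held 98.3% ± 0.599, and Hspa8, a cytosolic chaperone, had no other isoform in the sum. Psap encodes the precursor of the saposins, lysosomal activators of lipid hydrolysis, and is known to be spliced at a very short exon. Its 2 unannotated isoforms had the same ends and 14 exons each, with lengths of 2589 and 2586 bases. The longer held 87.1%, 86.2%, 87.3%, 87.7% and 86.5% in SG and 87.7%, 87.0%, 86.5%, 87.7% and 86.9% in SHAM, and the pair 99.8% ± 0.0364. Thus 2 transcripts that differ by 3 bases kept nearly one ratio across all 10 libraries. Col18a1, the gene of a basement membrane collagen, had 99.9% ± 0.125 in an unannotated isoform with 41 exons that started 46427 bases inside the annotated one.

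**Figure D2:**
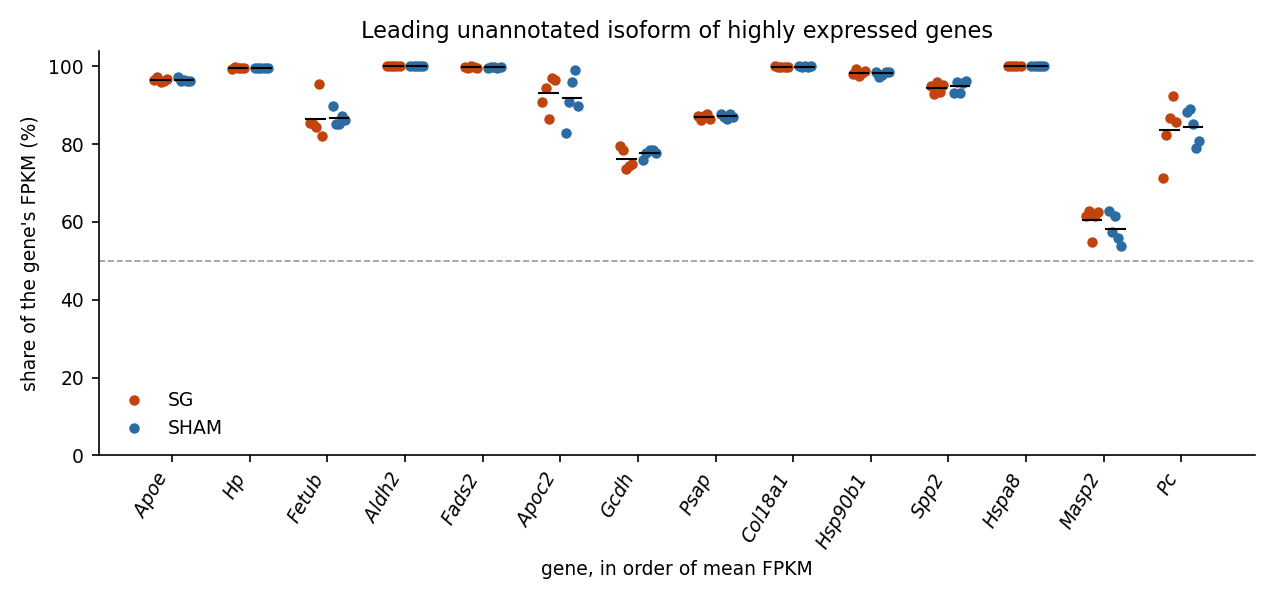
Share of the gene's FPKM (vertical axis, percent) held by the unannotated isoform in each SG (orange) and SHAM (blue) library, for 14 of the 15 genes of highest mean FPKM among those with 1 unannotated isoform over 50% in each library. Short lines are means of 5 libraries, the dashed line is the limit of 50%, and Masp2 is the gene drawn closest to it.

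Unannotated isoforms were mostly longer than the main annotated isoform, and those that dominated their gene most often extended its 3′ end. Each unannotated isoform was compared with the most abundant annotated isoform of its gene, with ends within 50 bases counted as the same. Only the same chromosome and strand were required, so pairs that do not overlap, as in Entpd7, entered these counts. Of 10647 unannotated isoforms, 76.2% were longer, with a median of 3971 bases against 2469. The 3′ end lay beyond the annotated one in 44.5% and the 5′ end in 38.8%. Of the 861 isoforms over 50% in each library, 86.6% were longer (median 4183 against 2142 bases) and 70.2% ended beyond the annotated 3′ end, by a median of 2292 bases. Of the 6134 under 50% in each library, 40.1% did. The 5′ end lay beyond the annotated one in 49.5% of the former and 35.8% of the latter.

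Exon numbers were compared in the same way. Among the mainly unannotated isoforms, 35.0% had more exons than the annotated isoform, 32.5% as many and 32.5% fewer, and the median was 10 exons on both sides. Among all unannotated isoforms 31.6% had more, 27.5% as many and 40.9% fewer, and among those under 50% in each library 30.6% had more, 23.8% as many and 45.6% fewer, with a median of 9 exons against 11. Only 6.85% of the mainly unannotated isoforms had both ends within 50 bases of the annotated ones, Apoe and Gcdh among them. Lengths ran from 200 to 56975 bases and 402 unannotated isoforms were longer than 15000 bases. No test was run on these counts, since isoforms of 1 gene share exons.

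**Figure D3:**
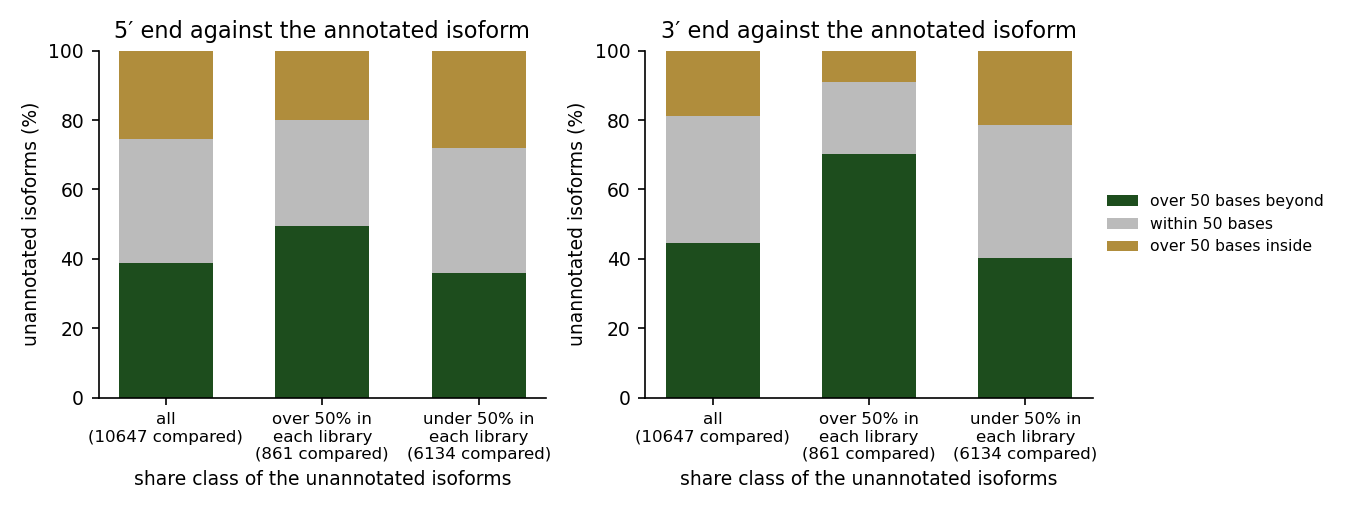
Percent of unannotated isoforms (vertical axis) whose 5′ end (left) or 3′ end (right) lies over 50 bases beyond the end of the main annotated isoform, within 50 bases of it, or over 50 bases inside it. Columns are all unannotated isoforms, those over 50% and those under 50% of their gene's FPKM in each library, and the largest segment beyond the end is the 70.2% of 3′ ends in the middle column.

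The gene lists gave different pictures of how much of a function's expression was unannotated. Of 38 expressed genes of splicing factors, the proteins that direct exon choice, 36 (94.7%) had an unannotated isoform, and in 20 (52.6%) the unannotated isoforms together held over 50% in each library. The corresponding values over all expressed genes were 46.9% and 17.3%. The median unannotated part was 72.9% in the list and 0 over all genes. Only 3 of the 38 (7.89%, against 8.63% of all) had a single unannotated isoform over 50% in each library, namely Hnrnpa2b1, Hnrnpu and Snrnp70. Mbnl1, a regulator of exon inclusion, had 17 unannotated isoforms that together held 98.8% ± 3.20, led by a 13092-base isoform at only 17.4% ± 3.14. Celf1, known as its antagonist, had 13 at 98.0% ± 0.525, and Clk4, a kinase of splicing factors, had 6 at 94.5% ± 4.10.

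Of 20 hepatocyte transcription factors, 16 had an unannotated isoform, and in 5 the unannotated isoforms together were over 50% in each library. Nr5a2, a nuclear receptor that acts on bile acid synthesis genes, had unannotated isoforms at 82.4% ± 6.85 together, and Nfib at 79.0% ± 2.05. Of 20 expressed genes of insulin and IGF signalling, 14 had an unannotated isoform and 6 were over 50% by their sum. Akt2, the main insulin-responsive Akt kinase of liver, had 97.8% to 99.8% in an unannotated isoform that extended both ends. Ptpn1, a phosphatase of the insulin receptor, had 81.0% to 95.5%. Unannotated isoforms of Pdk4, which restrains pyruvate oxidation, held 95.9% ± 2.99, and those of Tsc2, a brake on mTOR, 96.4% ± 3.39.

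Among lipid genes, Lpin1 and Acacb had almost no annotated product in the sum. Lpin1, a phosphatidate phosphatase, had 10 unannotated isoforms with 99.7% or more in each library, and Acacb, which makes the malonyl-CoA that restrains fatty acid oxidation, had 4 with 99.2% or more. In all, 5 of 18 expressed genes of fatty acid synthesis and 5 of 20 of fatty acid oxidation were over 50% by the sum of their unannotated isoforms in each library. Cpt1a, the carnitine palmitoyltransferase that admits fatty acids to mitochondria, had 95.7% ± 4.64, Hadhb 97.7% ± 1.38, and Bdh1, a ketone body dehydrogenase, 82.3% to 98.8%.

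Bile acid genes had an unannotated isoform in 12 of 19, with the sum over 50% in each library in 4. Nr1h4, the bile acid receptor FXR, had an unannotated isoform with a start 56924 bases upstream at 77.4%, 74.3%, 76.3%, 76.2% and 75.6% in SG and 78.2%, 73.3%, 72.6%, 69.0% and 78.5% in SHAM. The groups overlapped. Unannotated isoforms held 97.6% ± 1.23 of Slco1a1, a bile acid and anion transporter, and 84.0% ± 13.7 of Akr1d1, the reductase of bile acid precursors. Among urea and amino acid genes 14 of 22 had an unannotated isoform, with 3 over 50% by the sum, among them Aass and Gls2 (83.3% ± 8.07), the liver glutaminase. Aass had no annotated isoform in the sum, so its 100% compares assembled transcripts with each other only.

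Lists of secreted proteins and of glucose enzymes were near the values of all genes or below them. In plasma proteins 12 of 25 had an unannotated isoform and 2 were over 50% in each library, in apolipoproteins 7 of 20 and 2, and in glucose and glycogen metabolism 9 of 19 and 0. The cytochrome P450 and conjugation list had 7 of 13 and 2 by the sum. Cyp2c11, a male-specific steroid hydroxylase, was at 96.2% ± 4.32 and Cyp2c6v1 at 67.9% ± 5.09, and both belong to families of close copies between which reads can be split. Of the long non-coding RNA list only 1 gene reached 1 FPKM and it had no unannotated isoform.

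Shares that were neither near 0 nor near 100% varied widely between libraries of one group. For unannotated isoforms with a mean share of 20% to 50% in expressed genes the median SD over 10 libraries was 15.2 percentage points, and for 50% to 80% it was 16.4. Within SG it was 12.8 and 13.1, and within SHAM 14.0 and 15.4. Over mean shares of 20% to 80% it was 21.2 points in genes of 1 to 5 FPKM, 13.3 in genes of 5 to 20 FPKM and 11.3 above 20 FPKM, so shares were steadier in genes of higher FPKM. Annotated isoforms of the same genes had 21.0, 13.3 and 9.29 points, and annotated isoforms of genes without an unannotated isoform had 18.1, 10.2 and 7.17.

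In 518 genes (9.93% of the 5219) an unannotated isoform went from under 10% in at least 1 library to over 90% in another. There were 656 such isoforms, with a median gene level of 4.17 FPKM, so several of the examples below lie far above the usual case. The partner was taken as the other isoform with the highest mean share in the libraries where the first was under 10%. It was unannotated in 319 cases, annotated in 335 and an overlapping transcript in 2. The partner did not always hold most of the gene there, as in Vwa8 with 30.0%. Where 2 unannotated isoforms of a gene replaced each other, both could be listed, so a pair could be counted 2 times. Exon numbers of the pair were the same in 317 (48.3%) and within 1 in 567 (86.4%), the median difference in length was 367 bases, and 91 pairs had both ends within 50 bases. In 89 isoforms no library lay between 10% and 90%. Each library had 235 to 257 of these isoforms under 10% and 150 to 195 over 90%, so no single library carried the pattern. Of 1598 expressed genes with at least 2 annotated isoforms and no unannotated one, 134 (8.39%) had an annotated isoform with such a switch. The 5219 genes were not limited to those with at least 2 isoforms, so the 2 percentages have unlike bases.

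Pigr, the gene of the receptor that carries polymeric antibodies across epithelia and into bile, was chosen as an example after its values were seen. Its 2 main unannotated isoforms have 10 exons each, start 17 bases apart and are 6079 and 4943 bases long (chromosome 13, 47564123 to 47594307 and 47564140 to 47592118, plus strand). The longer had 529, 126, 1.94, 13.1 and 659 FPKM in SG 1 to SG 5 and 15.9, 55.0, 417, 10.3 and 21.5 FPKM in SHAM 1 to SHAM 5. The shorter had 0, 459, 779, 768 and 0 FPKM in SG and 762, 790, 0, 588 and 535 FPKM in SHAM. The shorter was thus listed at 0 in SG 1, SG 5 and SHAM 3, the libraries in which the longer was highest, while together they held 99.7% or more in each library.

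Ctsa encodes cathepsin A, a lysosomal carboxypeptidase that protects other lysosomal enzymes. Its 2 unannotated isoforms have 16 exons each, share their 3′ end and start 106 bases apart (2036 and 1929 bases, chromosome 3, from 161297908 and 161298014 to 161304625, plus strand). The longer had 62.3, 0.0240, 89.4, 112 and 0.0233 FPKM in SG and 110.1, 107, 0.00644, 0.0153 and 113 FPKM in SHAM. The shorter had 125 and 128 FPKM in SG 2 and SG 5, and 102 and 141 FPKM in SHAM 3 and SHAM 4, and at most 0.000713 FPKM in the other 6. Libraries of both groups were on each side. SG 1 alone had 38.6 FPKM of the annotated isoform, against at most 2.57 in the others.

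Xpo7 encodes a nuclear transport receptor. It had 5 unannotated isoforms of 28 exons, with lengths of 5971, 5914, 5910, 5408 and 5321 bases, and each led in at least 1 library. The 5914-base isoform led in SG 1, SG 3 and SHAM 5 at 9.71, 9.96 and 9.39 FPKM. The 5910-base isoform, whose start lies 5 bases and whose end lies 3 bases from those of the former, led in SG 4, SG 5, SHAM 3 and SHAM 4 at 10.1, 10.2, 9.39 and 9.47 FPKM. The remaining 3 led in SG 2, SHAM 1 and SHAM 2 at 11.5, 7.89 and 9.70 FPKM. The level of the leading isoform was therefore much alike across libraries while its identity changed.

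Bmi1, a Polycomb subunit, showed a similar exchange among 3 unannotated isoforms of 10 exons, and Ago2, the slicer of RNA interference, between 2 of 19 exons. The leading Ago2 isoform held 99.7%, 1.80%, 0.518%, 0.920% and 99.3% in SG and 99.4% or more in each SHAM library, so all 3 libraries with the other form were SG libraries. The share test gave an unadjusted p of 0.0228 (limma, adjusted p = 0.922), and Ago2 was named for its spread over these libraries. In Kif13b, Bsdc1 and Ewsr1 the exchange was between an unannotated and an annotated isoform, and in Capns1 only in part. The Capns1 isoform held 99.9% or more in SG 1, SG 3, SHAM 1 and SHAM 4. There the gene total was only 4.04, 7.47, 5.75 and 5.95 FPKM, against 16.0 to 25.7 FPKM in the other libraries. In SHAM 3 this isoform held 44.7%, and all unannotated isoforms of Capns1 together held 80.8%. Bsdc1 had 15.3 and 15.8 FPKM of its unannotated isoform in SG 2 and SG 4, and 13.8, 14.1 and 14.2 in SHAM 3 to SHAM 5, all 5 with the annotated isoform listed at 0.

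Itih3, which encodes a heavy chain of a plasma protease inhibitor that binds hyaluronan, shows the exchange at a high level and was also named after its values were seen. Its leading unannotated isoform of 21 exons had 961, 67.7, 18.5, 1097 and 1018 FPKM in SG and 1115, 596, 891, 10.4 and 1010.4 FPKM in SHAM. In SG 2 and SHAM 4 the annotated isoform took its place, with 940.4 and 737 FPKM. In SG 3 an unannotated isoform of 22 exons did, with 915 FPKM, while that isoform was at 0.0124 FPKM or less in the other 9.

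Genes in the liver lists could also change by library. Slc37a4, the glucose 6-phosphate transporter of the endoplasmic reticulum, had 99.2% or more in its unannotated isoform in 7 libraries, but 47.6% in SG 1, 35.2% in SG 2 and 59.4% in SHAM 5. Cpt1a had 5.28% of its leading unannotated isoform in SG 3, where another unannotated isoform took over at 60.2 FPKM, and 70.8% to 90.3% in the other 9 libraries. Acacb had 0 of its leading unannotated isoform in SG 2 and 33.5% to 93.6% elsewhere.

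**Figure D4:**
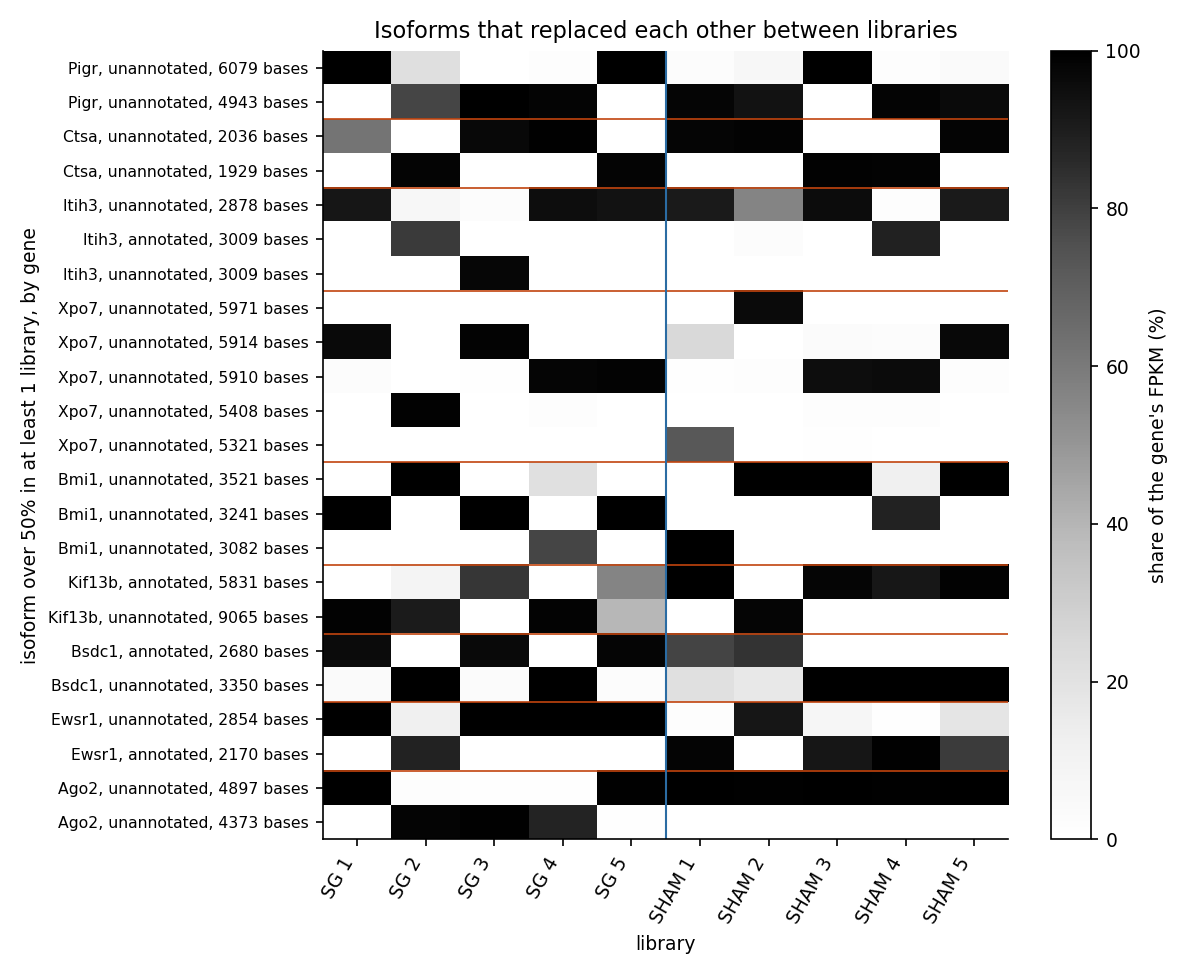
Share of the gene's FPKM (grey scale, 0 to 100%) in each library (columns, SG left of the blue line) for every isoform over 50% in at least 1 library of 9 genes (separated by orange lines), labelled as unannotated or annotated with its length. Dark cells move between isoforms of a gene from library to library in both groups, as in Pigr, where SG 1, SG 5 and SHAM 3 differ from the rest.

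No unannotated isoform differed in share between SG and SHAM after adjustment. The test was limma on the share in percent, over 17111 isoforms with a mean share of 5% to 95% in expressed genes, 8536 of them unannotated. None of the 8536 had an adjusted p of 0.05 or less, as with all 17111 (0%). At an unadjusted p under 0.05 there were 387 unannotated isoforms, 201 higher and 186 lower in SG, or 4.53% against 4.50% of all isoforms tested, so the share of small p-values was near that of the background. The shares of SG and SHAM did not overlap in 74 unannotated isoforms (0.867%), against 0.865% of all tested. The exon-level test of edgeR (diffSpliceDGE) on estimated counts called 15 unannotated isoforms of 15 genes, 8 higher and 7 lower, where 0.135% of 17055 isoforms were called. Leaving out SG 2 gave 4 calls in limma, of Dpyd, Mark3 and Zfp513, leaving out SHAM 5 gave 3, of Anks1a, Inpp4a and Slc4a4, and leaving out both gave 6. Calls over all isoforms are not given for these reduced fits, so their counts have no background to be set against. Among the 15 genes of diffSpliceDGE were Dpyd, Ppm1a, Trak1, Pitrm1 and Cyp2b2.

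The median half-width of the 95% interval of a share difference was 14.9 percentage points. For 4140 of the 8536 unannotated isoforms (48.5%) the whole interval lay within 20 points either way. For the remaining isoforms the interval includes differences of over 20 points, so a share that missed the threshold is not shown to be equal.

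Mark3, a kinase of microtubule-associated proteins, had the smallest p. Its 16-exon unannotated isoform (3559 bases, chromosome 6, 136041218 to 136129631, plus strand) held 66.3%, 27.2%, 61.5%, 55.4% and 66.0% in SG 1 to SG 5 and 6.88%, 6.21%, 10.8%, 0.695% and 4.07% in SHAM 1 to SHAM 5. The groups did not overlap, and SG 2 was the lowest SG library. The difference was 49.5 ± 7.37 points (SE; limma, adjusted p = 0.335, n = 5 each), and without SG 2 it was 56.6 points with an adjusted p of 0.00236. Since SG 2 was the SG library nearest to SHAM, leaving it out favours a small p, and the second value is no separate support. The level of the isoform was 6.69 ± 2.21 FPKM in SG and 0.584 ± 0.350 in SHAM (SD). Its 2 unannotated isoforms with 18 exons were at 0.413 to 2.02 FPKM in SG and 0.0254 to 3.22 FPKM in SHAM.

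Cdk16, a kinase that is not tied to the cell cycle, had an exchange between 2 unannotated isoforms of 16 exons whose 5′ ends lie 218 and 105 bases beyond the annotated one. The 3067-base isoform held 91.5%, 90.9%, 80.8%, 53.8% and 46.8% in SG and 7.36%, 0%, 37.0%, 0.0530% and 29.2% in SHAM. The 3477-base isoform held 7.33%, 9.05%, 17.4%, 42.8% and 52.3% in SG and 92.0%, 93.7%, 62.1%, 99.8% and 70.1% in SHAM. Neither pair of groups overlapped, with differences of 58.0 ± 11.5 and -57.7 ± 11.1 points (limma, adjusted p = 0.922 for both), which are 2 views of one exchange.

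The other isoforms with small p-values and a higher share in SG were of Crebrf, Caskin2 and Zfp771. Crebrf encodes a regulator of the glucocorticoid and unfolded protein responses. Its 8-exon unannotated isoform had 3.58, 3.30, 2.30, 3.39 and 2.72 FPKM in SG, and in SHAM 1.04 FPKM in SHAM 1 and 0 in the other 4. Its share difference was 28.6 ± 4.84 points (limma, adjusted p = 0.695). The unannotated isoform of Caskin2, a scaffold protein, is 13 bases longer than the annotated one and held 65.2% to 88.5% in SG and 26.5% to 60.2% in SHAM. That of Zfp771, a zinc finger gene, held 35.1% to 50.0% in SG and 6.33% to 29.6% in SHAM. The level of the Zfp771 isoform was 1.49 ± 0.345 FPKM in SG and 1.10 ± 0.171 in SHAM (SD). Its gene total was 2.81 to 5.00 FPKM in SG and 3.63 to 14.2 in SHAM, so this share also reflects the other isoforms.

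Lower shares in SG were seen for Rnf125, Kif5b, Hace1 and Cntrl. The unannotated isoform of Kif5b, the heavy chain of a kinesin motor, extends the annotated 3′ end by 7016 bases. It held 76.2%, 71.2%, 55.3%, 79.0% and 53.8% in SG and 100%, 100%, 100%, 93.5% and 81.1% in SHAM. Its level was 3.09 ± 0.0815 FPKM in SG and 3.54 ± 0.449 in SHAM, with 4 of 5 SHAM libraries above every SG library (unadjusted p = 0.0370, adjusted p = 1 in edgeR). The annotated isoform had 0.795 to 2.70 FPKM in SG and 0 to 0.859 in SHAM. Rnf125 and Hace1, both ubiquitin ligases, had 0.303% to 24.1% against 26.3% to 61.5% and 0.867% to 31.8% against 32.7% to 100%. The Rnf125 isoform itself was at 3.82 ± 6.59 FPKM in SG and 5.31 ± 2.66 in SHAM (SD). The Rnf125 gene total was 22.1 to 64.2 FPKM in SG and 5.03 to 31.4 in SHAM, so its share also reflects the other isoforms. Cntrl, a centriolar protein gene, had 0% to 44.5% against 36.8% to 67.6%, and was the one of these genes whose groups overlapped. Their adjusted p was 0.922 in each case (limma).

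**Figure D5:**
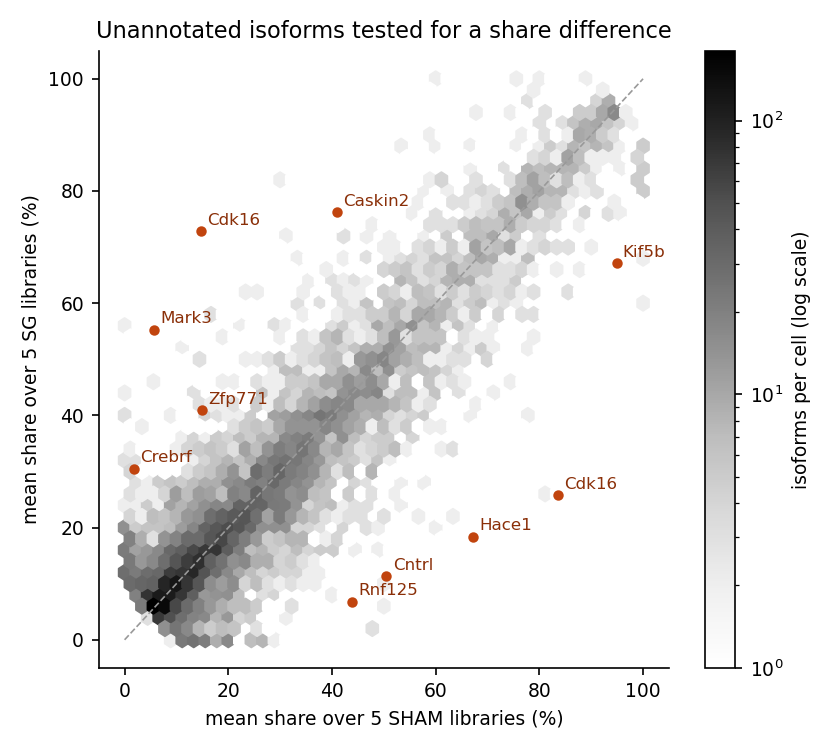
Mean share over the 5 SG libraries (vertical axis) against that over the 5 SHAM libraries (horizontal axis) for unannotated isoforms tested for a share difference, as counts per cell on a log scale, with the 10 isoforms of smallest p in either direction in orange. Most lie along the dashed line of equal shares, and the 2 isoforms of Cdk16 lie on opposite sides of it.

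The level of unannotated isoforms was tested next, and the tools differed in what they called. The edgeR quasi-likelihood test on 39559 isoforms called none of the 9977 unannotated ones (0% of all were called). On simulated data this test missed most of the 4-fold changes that were put in and found nearly all of the 16-fold ones. The changes were put only into isoforms with higher counts and a spread below the median, so recovery in other isoforms was not measured. A level that the test did not call is therefore not shown to be equal, even where the difference is large. At an unadjusted p under 0.05 there were 505 unannotated isoforms, 257 higher and 248 lower in SG, or 5.06% against 4.12% of all isoforms tested. DESeq2 called 88 of 9536 unannotated isoforms (0.923%), 53 higher and 35 lower, where it called 0.553% of 37813 isoforms. Limma on log2(FPKM + 0.1) called 1, of Cask. In edgeR, leaving out SG 3 gave 2 calls (Macf1 and Sel1l3), and leaving out SHAM 1 or SHAM 5 gave 1 each (Crebrf and Nhlrc2). For limma on FPKM and for these reduced fits, calls over all isoforms are not given, so there is no background beside the counts.

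Cask, a scaffold kinase, had the smallest p in edgeR. Its 19-exon unannotated isoform of 1917 bases had 0.802, 2.04, 1.02, 0.590 and 1.52 FPKM in SG and 0, 0.0145, 0, 0 and 0.00712 FPKM in SHAM. All SG libraries were above all SHAM libraries (edgeR, adjusted p = 0.348). SG 2, the library with the most macrophage marker RNA, had the highest value, and the part of other cells in it was not tested.

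Dpyd, which encodes the first enzyme of pyrimidine breakdown, gave the largest levels among these isoforms. The table holds 2 annotated isoforms of this name, one of 10 exons and 1191 bases (chromosome 2, 221823687 to 222165727) and one of 12 exons and 2956 bases (222214885 to 222694627, plus strand). An unannotated isoform of 22 exons and 4142 bases runs from the start of the first to the end of the second. It had 33.4, 0.586, 33.8, 22.5 and 31.3 FPKM in SG 1 to SG 5 and was listed at 0 in all 5 SHAM libraries. The first annotated isoform had 1.99, 78.7, 1.10, 7.11 and 1.14 FPKM in SG and 117, 159, 103, 71.5 and 70.9 FPKM in SHAM. So SG 2 resembled SHAM in both, and in the other 4 SG libraries the long isoform stood where the short one was low. The second annotated isoform had 50.7 to 70.6 FPKM in SG and 42.9 to 98.7 in SHAM. The adjusted p was 0.681 for the level in edgeR and 0.922 for the share in limma. A fold change against a group at 0 is not given.

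Other isoforms with higher levels in SG were of Macf1, a linker of actin and microtubules, Trak1, an adaptor of mitochondrial transport, and Ppm1a, a protein phosphatase. The Macf1 isoform, with 99 exons, was at 1.07 ± 0.642 FPKM in SG (SD), with SG 3 at 0, and at 0.000132 FPKM or less in SHAM. Its adjusted p in edgeR was 0.681 over all libraries and 0.00206 without SG 3, the one SG library at 0. Leaving out the library that goes against a difference favours a small p, so the second value is no separate support. The Ppm1a isoform had 0.643, 1.72, 1.61, 1.64 and 2.21 FPKM in SG and 0.507, 0.556, 0.214, 0.361 and 0.326 in SHAM (adjusted p = 0.708 in edgeR). The Trak1 isoform was at 0.105 to 2.67 FPKM in SG and 0.00222 to 0.0189 in SHAM.

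Isoforms with lower levels in SG were of Fam98c, Fcf1, Rchy1, Htatip2 and Pitrm1. For Fcf1, a factor of ribosomal RNA processing, the unannotated isoform had 0.396, 0.189, 0.393, 0.530 and 0.295 FPKM in SG and 2.92, 0.714, 3.66, 0.807 and 3.46 FPKM in SHAM. That of Rchy1, a ubiquitin ligase, had 0.350 to 0.559 against 0.565 to 2.45 FPKM, and that of Htatip2 0.111 to 0.539 against 0.801 to 2.12 FPKM. In these 3 genes and in Fam98c (0 to 0.0869 against 0.556 to 2.83 FPKM) the groups did not overlap. Pitrm1, a mitochondrial peptidase gene, had 2.07, 4.87 and 4.40 FPKM in SHAM 1, SHAM 3 and SHAM 5 and at most 0.00715 FPKM in the other 7 libraries. The adjusted p was 1 for each of the 5 in edgeR.

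The 14 highly expressed genes named above with a mainly unannotated isoform showed no such gap. Share differences were tested in 7 of them and ran from -1.45 points (Gcdh, 76.2% ± 2.58 in SG and 77.6% ± 1.05 in SHAM) to 2.33 points (Masp2, 60.6% ± 3.28 and 58.3% ± 3.78), with p-values of 0.535 or more before and 0.958 or more after adjustment in limma. The other 7 had mean shares above the tested range of 95%. Genes of the lists varied in this. The leading isoform of Nr1h4 was at 75.9% ± 1.14 in SG and 74.3% ± 4.04 in SHAM, and the isoform of Akt2 at 99.3% ± 0.818 and 99.4% ± 0.622 (SD, n = 5 each). The unannotated isoforms together held 49.5% ± 10.1 in SG and 79.9% ± 23.9 in SHAM of Srsf4, a splicing factor, 89.0% ± 3.12 and 74.2% ± 12.2 of Hnrnpl, and 9.15% ± 2.35 and 21.9% ± 11.9 of Nfia. These 3 genes were picked after their values were seen, and the sum over a gene's isoforms was not tested between the groups.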

How the data were processed

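Total RNA of 10 rat liver samples, 5 SG and 5 SHAM by their labels, was depleted of ribosomal RNA and sequenced in pairs, per the labels' protocols. Tools named in the submitters' processing notes are HISAT2 2.0.4, StringTie 1.3.4, cutadapt 1.9 and FastQC 0.10.1, with the build Rnor_6.0, in which all isoform coordinates are given. The authors deposited 1 table with FPKM and estimated counts per isoform and library. The FPKM that the authors deposited were used for shares and levels as they stand. The deposited estimated counts hold whole numbers that follow the product of FPKM and isoform length in each library, so count models rest on estimates, and they were rounded before use.

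Shares took 4 classes of isoform under 1 gene name, of which 188 with an unannotated isoform cover more than 1 assembled locus. A gene counted as expressed at a mean of at least 1 FPKM. Share differences were tested with limma 3.58.1 with a trend, on the share in percent, for genes above 0 in each library with at least 2 isoforms above 0. Levels were tested with edgeR 4.0.16 (quasi-likelihood, trimmed mean of M values) for isoforms detected in 5 or more libraries whose mean reached 0.1 FPKM, and with DESeq2 1.42.0 as an alternative. Both fits ran over the whole table, two-sided, with Benjamini-Hochberg adjustment and a threshold of 0.05, and were tested on simulated data, where the level test missed most of the smaller changes. Library measures were compared by an exact permutation test. Counting intervals were not used, since isoform counts are estimates, and the number of libraries limits the precision.

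The members, the gene lists and the tests were chosen with earlier results of these data known. Named genes have an assigned symbol; names made of a clone or locus number were passed over. They are the 15 mainly unannotated genes of highest FPKM, the 8 changing genes of at least 5 FPKM with the largest SD of the share, the 5 smallest p-values in each direction for share and level, up to 3 members of each of 12 lists with the highest unannotated part, and 2 genes on each side of the 50% limit. Some of these genes are not reported here. RefSeq tables of build GRCr8 gave symbols, biotypes and start windows only. Antisense partners and close gene copies can share reads, and whether the counting used strand is not stated in the labels.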

Additional observations from a re-analysis of the deposited data

Results flagged for a closer look

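In 27 measures (4 per library and the shares of 23 named isoforms) each group of 5 libraries was searched for a library far from the others, 54 groups in all, and 7 were found. About 1 in 20 groups of normally distributed values would pass the limit used. Shares are bounded, and 8 of the isoforms were named for their large spread, so that rate need not hold here. The number found is therefore not read as an excess. The Apoe isoform was at 97.2% in SHAM 1, where the rest of that group had 96.3% to 96.5%. The Fetub isoform was at 95.4% in SG 4 against 82.0% to 85.5%, and the Masp2 isoform at 54.9% in SG 3 against 61.4% to 62.9%. The others were genes whose isoforms replaced each other. Bmi1 was at 100% in SG 2 against 0% to 21.1%, Kif13b at 97.9% in SHAM 2 against 0%, and Ewsr1 at 12.0% in SG 2 against 99.8% to 100% and at 92.2% in SHAM 2 against 0.508% to 18.7%.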

How the results depend on the processing

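The count of 961 mainly unannotated genes was 516 at a limit of 75%, 335 at 90%, 441 with a gene mean of at least 5 FPKM and 1932 with the unannotated isoforms of a gene summed. It stayed within 1.5 times for shares of counts, other classes, a lower minimum or assembled loci, and was 983 to 1001 with a library left out. The 2675 genes mainly unannotated in some libraries were 1581 at a gene mean of at least 5 FPKM and 1041 with limits of 75% and 25%, and 2577 to 2613 with a library left out.

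Unannotated isoforms with a different share numbered 0 in limma, 15 with diffSpliceDGE, 6 without both SG 2 and SHAM 5 and 0 to 4 with 1 library left out, and 0 with the log2 ratio, other minimums or no trend. For the level, edgeR gave 0, DESeq2 88, limma on FPKM 1, edgeR without both libraries 1, and edgeR with 1 library left out 0 to 2. Fits with libraries left out have no count over all isoforms beside them. An edgeR setting with bias-adjusted deviances, chosen after seeing the data, gave 0. With the replicate block, share and level gave 0 calls each. Correlations of same-numbered SG and SHAM libraries ran from -0.025 to 0.021, so the numbers do not pair the samples. The cause of the differences between tools was not tested.

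The unannotated share of summed FPKM differed by 1.56 points, by 0.840 to 2.33 with 1 library left out, and by -0.0255 as a median over genes. Over the alternatives, mean shares of named isoforms moved by less than 1 SD in 273 cases and by more in 3. The 10 share differences and 10 level differences named for their small p-values kept their sign in each alternative that tested them. They were picked for their differences in these same libraries, so a stable sign is no separate support. Signs of the other named isoforms were not examined. Among unannotated isoforms with mean shares of 20% to 80%, the median SD was 21.2 points in genes under 5 FPKM, 13.3 at 5 to 20 FPKM and 11.3 above. Whether depth sets this was not tested.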
